A study of Rattus norvegicus with 304 samples.

Results

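The subject is the liver of rats that received corn oil alone, the vehicle of a dioxin study, followed over time after the gavage. The corn oil groups were chosen from the sample labels: on the OpenArray, a plate of nanolitre PCR wells with preloaded assays, 36 of 150 samples belong to them, and 40 of 154 on the 7900HT, a real-time PCR instrument that reads ordinary plates. All 36 OpenArray sample titles recur on the 7900HT, so the platforms share animals and are not independent. The study gave male Han/Wistar rats (HW below, a TCDD-resistant strain) and Long-Evans rats (LE below, TCDD-sensitive), aged 10 to 12 weeks, TCDD (a dioxin) or corn oil once by oral gavage, and measured liver RNA by reverse transcription and PCR. The comparison asks which genes hold their level without TCDD and which do not, when each corn oil group is set against corn oil at 19 h of its own strain.

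In HW the OpenArray labels give 3 corn oil samples for 1.5 h, 6 for 19 h, 4 for 96 h, 5 for 240 h and 3 for 384 h. In LE they give 7 at 19 h, 4 at 96 h and 4 at 240 h. The 7900HT labels add 1 animal each to HW at 19, 96 and 384 h and to LE at 240 h. For each platform the authors' deposited table gives 1 value per gene and group, read here as the log2 fold change against corn oil at 19 h of the strain, because every gene is 0 there. The log base is not stated. There are 49 genes on the OpenArray, 39 on the 7900HT and 38 on both. Values per animal were not used, so how far animals differed is unknown, no value has an error, and no test of a difference could be made. A gene was therefore counted by size alone: past 2-fold, which is at least 1 log2 unit from 0, or stable, which is within 0.5 log2 units of 0 in every other corn oil group of the strain. Time after gavage, age and hour of the day cannot be told apart: 96, 240 and 384 h are whole multiples of 24 h after dosing, 19 h is not, and the labels do not give the hour of dosing.

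As background, many genes of the panel belong to the response of the aryl hydrocarbon receptor (AHR), to which TCDD binds. This ligand-activated transcription factor pairs with ARNT, binds DNA at a short core motif, and switches on enzymes of foreign-compound metabolism such as the CYP1 family, NQO1 and ALDH3A1. It also induces its own repressors, AHRR and TIPARP, which close a feedback loop. In liver without an added ligand several of these targets, Cyp1a1 foremost, are kept low, while the liver's constitutive genes, such as Cyp1a2, are made in large amounts. The authors' deposited tables hold changes and no levels, so the liver label could not be checked against marker levels. Of the hepatocyte marker list 4 of 8 genes were on the OpenArray (Mug1, Cyp1a2, Fmo1 and Inmt), and no marker of Kupffer, stellate, endothelial, bile duct or immune cells was on either platform. In bulk liver, fewer cells of a type and less RNA per cell cannot be told apart.

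Cyp1b1, Ahrr and Scn4b stood past 2-fold together in HW at 96 and 240 h and in LE at 96 h, and their promoter windows are shown for that reason. Each runs from 250 bases before to 50 bases after the gene's start, 5′ to 3′ on the gene's own strand, and comes from RefSeq on build GRCr8. Capitals mark GCGTG, the AHR core motif, and its reverse complement CACGC, with both strands searched. The Cyp1b1 window lies at chr6:21094315-21094614 on the plus strand, the Ahrr window at chr1:30821969-30822268 on the plus strand, and the Scn4b window at chr8:54343623-54343922 on the plus strand.
Cyp1b1: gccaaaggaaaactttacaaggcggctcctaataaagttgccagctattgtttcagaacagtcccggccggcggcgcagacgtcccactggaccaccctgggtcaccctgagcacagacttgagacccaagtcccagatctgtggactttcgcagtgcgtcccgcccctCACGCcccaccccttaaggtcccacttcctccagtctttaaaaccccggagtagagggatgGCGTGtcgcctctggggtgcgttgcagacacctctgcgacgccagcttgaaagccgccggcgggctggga
Ahrr: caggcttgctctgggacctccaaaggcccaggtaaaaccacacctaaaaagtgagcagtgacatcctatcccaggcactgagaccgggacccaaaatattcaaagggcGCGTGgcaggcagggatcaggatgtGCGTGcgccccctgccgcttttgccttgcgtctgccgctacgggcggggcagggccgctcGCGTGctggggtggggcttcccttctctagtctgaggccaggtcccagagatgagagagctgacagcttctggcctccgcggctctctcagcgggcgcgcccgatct
Scn4b: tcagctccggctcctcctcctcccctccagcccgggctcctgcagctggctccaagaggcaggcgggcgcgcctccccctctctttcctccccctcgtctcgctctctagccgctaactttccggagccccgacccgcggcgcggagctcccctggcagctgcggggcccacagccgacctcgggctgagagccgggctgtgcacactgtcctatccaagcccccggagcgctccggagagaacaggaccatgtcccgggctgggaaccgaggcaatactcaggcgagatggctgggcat
The Cyp1b1 window held 1 match to GCGTG and 1 to CACGC, the Ahrr window 3 to GCGTG, and the Scn4b window 0. Of 33469 promoter windows of 300 bases, 29.7% held at least 1 match, and of the 43 panel genes with an entry 46.5%. A match is a description of the letters and not of binding. Aldh3a1 and Cyp1a1 have no entry in the table.

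Few genes stood past 2-fold in any 1 group, and the values farthest from 0 were those of Cyp1b1, Aldh3a1 and Cyp1a1. In HW 6 of 48 OpenArray genes were past 2-fold at 1.5 h (12.5%), 5 of 49 at 96 h (10.2%), 5 of 49 at 240 h (10.2%) and 5 of 48 at 384 h (10.4%). In LE 5 of 49 were past 2-fold at 96 h (10.2%) and 2 of 49 at 240 h (4.08%). The direction differed by time: 1 higher (2.08%) and 5 lower (10.4%) at 1.5 h, 5 higher (10.2%) and 0 lower at both 96 and 240 h, and 1 higher (2.08%) and 4 lower (8.33%) at 384 h in HW. In LE all 5 at 96 h were higher, and at 240 h 1 was higher (2.04%) and 1 lower (2.04%). Over all genes together 11 of 49 were past 2-fold in at least 1 HW group and 6 of 49 in at least 1 LE group, and the 6 (Ahrr, Aldh3a1, Cyp1a1, Cyp1b1, Inmt and Scn4b) are among the 11. LE has 2 such groups and HW 4, so the strain counts are not matched for the number of chances.

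**Figure D1:**
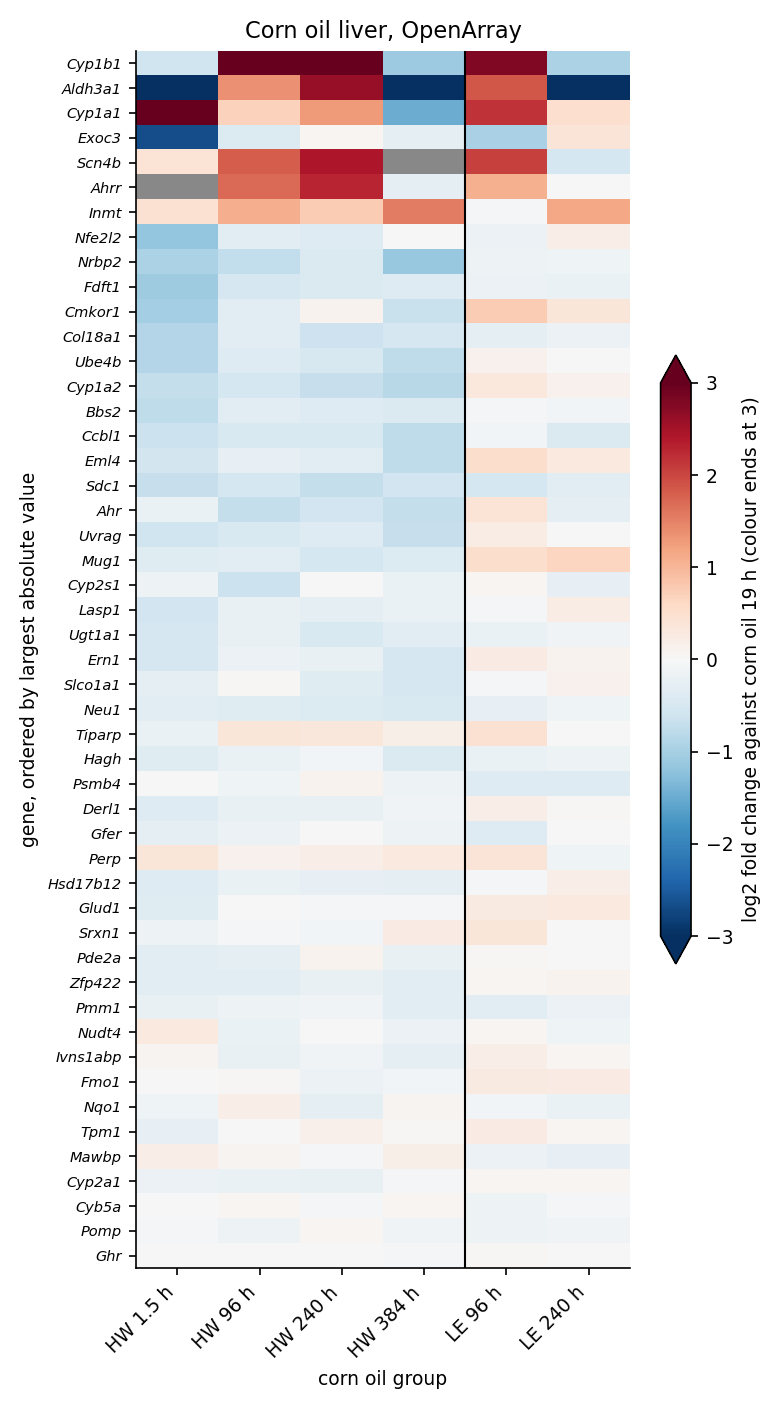
Colour gives the log2 fold change of each of 49 OpenArray genes (rows, ordered by largest absolute value) against the strain's own 19 h corn oil group, for 4 HW and 2 LE corn oil groups (columns); grey marks a missing value and the scale ends at 3. Colour is concentrated in the top rows, from Cyp1b1 to Inmt, while Ghr at the bottom lies between -0.05 and 0.04.

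A shift shared by many genes lay under the HW values. The median over all OpenArray genes was -0.33 (1.5 h), -0.21 (96 h), -0.11 (240 h) and -0.29 (384 h) in HW, against 0.05 (96 h) and -0.02 (240 h) in LE. In HW at 240 h 33 of 49 genes were below 0. The HW group at 0.001 µg/kg TCDD and 19 h, the reference time, had a median of -0.13, also with 33 of 49 genes below 0. In LE the median at that dose was 0.04. Whether the HW shift lies in the shared 19 h reference was not tested. Relative to its group's median, HW at 1.5 h kept 3 genes past 2-fold (Cyp1a1 higher, Aldh3a1 and Exoc3 lower) and at 384 h also 3 (Inmt higher, Aldh3a1 and Cyp1a1 lower). That changes the split from 1 higher and 5 lower to 1 and 2 at 1.5 h, and from 1 and 4 to 1 and 2 at 384 h. In LE at 96 h the centring brought in Exoc3 as lower, giving 5 higher and 1 lower.

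The AHR battery is a list of 12 genes of the AHR response that are all on the OpenArray. In HW at 1.5 h, 1 of 11 with a value stood past 2-fold higher and 3 lower (all genes 2.08% and 10.4%). At 96 h 4 of 12 were higher and 0 lower (all genes 10.2% and 0%). At 240 h the counts were 4 and 0 (10.2% and 0%), and at 384 h 1 and 3 (2.08% and 8.33%). In LE 4 of 12 were higher and 0 lower at 96 h (all genes 10.2% and 0%), and 1 and 1 at 240 h (2.04% and 2.04%). The list's median was -0.51 (1.5 h), 0.28 (96 h), 0.20 (240 h) and -0.26 (384 h) in HW, beside medians of all genes of -0.33, -0.21, -0.11 and -0.29. In LE the list's median was 0.30 (96 h) and 0.07 (240 h), beside 0.05 and -0.02. On the 7900HT the list's counts ran otherwise. There 8 of 12 were higher and 2 lower in HW at 1.5 h, where 28.2% of all genes were higher and 59% lower. At 96 h in HW 2 were higher and 7 lower (all genes 7.69% and 25.6%), at 240 h 3 and 4 of 11 (10.5% and 18.4%), and at 384 h 4 and 5 of 12 (23.1% and 15.4%). In LE 0 were higher and 6 lower at 96 h (all genes 10.3% and 23.1%), and 2 and 5 at 240 h (23.1% and 25.6%). At 1.5, 96 and 240 h in HW and at 96 h in LE the side with more genes was thus the opposite one on the OpenArray. The list's members were chosen with earlier results of these data known, so the counts describe the list only.

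Among the CYP1 enzymes, Cyp1b1, a P450 that is strongly dioxin-inducible, had the highest value of any gene. In the authors' deposited table it stood at -0.59 (1.5 h), 4.38 (96 h), 5.05 (240 h) and -1.10 (384 h) in HW, and at 2.79 (96 h) and -0.95 (240 h) in LE. The middle times were high in HW, by 33.2-fold at 240 h, and 384 h was not. Cyp1a1, the classical AHR target, stood at 3.47 (1.5 h), 0.70 (96 h), 1.27 (240 h) and -1.48 (384 h) in HW in the authors' deposited table, with 2.16 and 0.51 in LE at 96 and 240 h. Its highest HW value, 11.1-fold, was thus the earliest group, of 3 animals, where Cyp1b1 lay below 0. Cyp1a2, the constitutive hepatocyte member of the family, stood at -0.71, -0.53, -0.69 and -0.84 in HW from 1.5 to 384 h and at 0.32 and 0.14 in LE, as read from the authors' deposited table, so that no group was past 2-fold.

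Aldh3a1, an inducible aldehyde dehydrogenase, had the widest range of all 49 genes in both strains. In the authors' deposited table it stood at -3.33 (1.5 h), 1.38 (96 h), 2.62 (240 h) and -3.54 (384 h) in HW, and at 1.87 (96 h) and -3.26 (240 h) in LE. Over the corn oil groups, 19 h included at 0, its range was 6.17 in HW and 5.14 in LE, and at 240 h the strains lay on opposite sides of 0. Cyp1b1 came next with ranges of 6.15 and 3.73. The median range over all OpenArray genes was 0.53 in HW and 0.27 in LE.

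On the OpenArray the AHR repressors differed from each other. Ahrr, which competes with AHR for ARNT, stood at 1.70 (96 h), 2.29 (240 h) and -0.26 (384 h) in HW in the authors' deposited table, with no value at 1.5 h, and at 1.07 and 0.00 in LE at 96 and 240 h. Tiparp, a feedback repressor that modifies AHR, was stable in both strains on the OpenArray. It stood at -0.20, 0.36, 0.34 and 0.17 in HW and 0.45 and -0.01 in LE in the authors' deposited table. On the 7900HT Tiparp was not stable, at 4.12, -1.46, 1.91 and 1.61 in HW and 0.17 and -1.33 in LE in the authors' deposited table. Ahr itself was within 0.72 of 0 in every OpenArray group: -0.21, -0.71, -0.57 and -0.72 in HW and 0.42 and -0.29 in LE in the authors' deposited table. On the 7900HT Ahr stood at 2.47, -3.53, -3.33 and -2.79 in HW and -0.27 and -0.96 in LE in the authors' deposited table. In the signalling list 3 of 6 genes were on the OpenArray (Ahr, Ahrr and Tiparp), and Ahrr was the 1 of them past 2-fold in any OpenArray group.

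Scn4b, a sodium channel beta subunit, is in none of the gene lists. It stood at 0.40 (1.5 h), 1.82 (96 h) and 2.42 (240 h) in HW in the authors' deposited table, with no value at 384 h, and at 2.06 and -0.52 in LE. Exoc3, a subunit of the vesicle-tethering exocyst, has its promoter window 97.7 kb from that of Ahrr on the same strand of chromosome 1 in GRCr8. It stood at -2.66 at 1.5 h in HW in the authors' deposited table, then at -0.41, 0.05 and -0.27, and at -0.97 and 0.39 in LE. Its low group was the 1.5 h group, where Ahrr has no value, and in LE at 96 h Ahrr was above 0 and Exoc3 below.

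**Figure D2:**
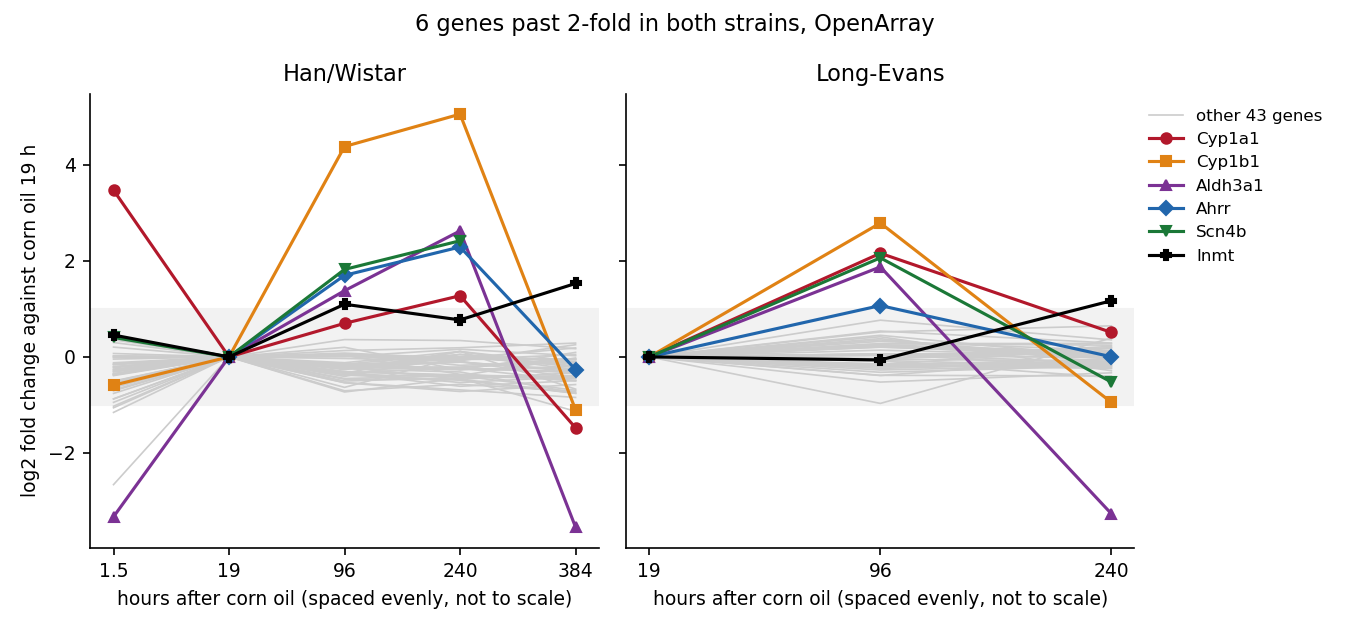
The log2 fold change against corn oil at 19 h (y) is drawn for each corn oil time in hours (x, evenly spaced and not to scale) in HW (left) and LE (right), with 6 genes past 2-fold in both strains in colour, the other 43 in grey and the 2-fold band shaded. Cyp1b1 peaks at 5.05 at 240 h in HW and at 2.79 at 96 h in LE, and Inmt is highest at 1.53 at 384 h and at 1.17 at 240 h.

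Inmt, an indolamine methyltransferase, was the 1 gene past 2-fold on the higher side at the latest time of both strains. In the authors' deposited table it stood at 0.45 (1.5 h), 1.10 (96 h), 0.77 (240 h) and 1.53 (384 h) in HW, and at -0.06 (96 h) and 1.17 (240 h) in LE. Corn oil at 19 h was therefore its lowest HW group. Of the list of drug metabolism outside the CYP1 family 6 genes were measured. Of these, Inmt and Aldh3a1 were past 2-fold in at least 1 OpenArray group and the other 4 were not. Over all 49 genes, 11 were past 2-fold in HW and 6 in LE. Nqo1, a quinone reductase, stood at -0.12, 0.20, -0.27 and 0.09 in HW in the authors' deposited table, while the flavin monooxygenase Fmo1 stood at 0.02, 0.05, -0.18 and -0.09. Ugt1a1, which conjugates bilirubin, reached -0.51 at 1.5 h in the authors' deposited table, just outside the stable limit. Cyb5a, the electron donor cytochrome b5, stayed within 0.06 of 0 in HW on the OpenArray. On the 7900HT in HW, Nqo1 stood at 2.62, -2.38, -2.79 and -2.65 and Ugt1a1 at 3.34, -2.62, -1.85 and -1.54 in the authors' deposited table. There Fmo1 stood at -1.90, 0.36, 0.29 and 0.37 and Cyb5a at -1.19, 0.60, 0.50 and 1.04.

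The 4 other genes past 2-fold were so in a single HW group, by small margins, and in no LE group. Nfe2l2, which encodes the stress regulator NRF2, stood at -1.16 at 1.5 h in the authors' deposited table, Fdft1, squalene synthase, at -1.06 at 1.5 h, and Cmkor1, a receptor that scavenges chemokines (current symbol Ackr3), at -1.03 at 1.5 h. Nrbp2, a pseudokinase, stood at -1.13 (384 h) and -0.95 (1.5 h) in the authors' deposited table. Relative to the group's median these became -0.82, -0.73 and -0.70 (1.5 h) and -0.84 (384 h), short of 2-fold. Just short of 2-fold as deposited were Col18a1 and Ube4b in HW, at 0.88 and 0.87 in absolute size, and Exoc3 in LE at 0.97. Just past 2-fold in LE were Ahrr and Inmt, at 1.07 and 1.17.

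In HW 24 of 49 OpenArray genes were stable and in LE 38, and the 24 were all among the 38. With only 96 and 240 h, the times both strains have, 35 were stable in HW. The narrowest range in HW was that of Ghr, the growth hormone receptor, with a range of 0.07, followed by Cyb5a at 0.12, Pomp, a proteasome assembly factor, at 0.20, and Cyp2a1 and Fmo1 at 0.22 each. Mawbp (now Pbld1) at 0.23, Psmb4, a proteasome subunit, at 0.26, Gfer, a mitochondrial sulfhydryl oxidase, at 0.28, Pmm1, a phosphomannomutase, at 0.31, and Zfp422 at 0.34 completed the 10 narrowest. In LE the 10 narrowest were Pde2a (0.03), Ghr (0.06), Cyp2a1 (0.06), Bbs2 (0.08), Zfp422 (0.11), Ube4b (0.14), Nrbp2 (0.15), Pomp (0.16), Cyb5a (0.16) and Slco1a1 (0.17). Ghr, Cyp2a1, Cyb5a, Pomp and Zfp422 are in both sets. For Ghr the authors' deposited table gives -0.01, 0.02, 0.00 and -0.05 in HW and 0.04 and -0.02 in LE. Nearest the stable limit in HW were Slco1a1 and Neu1 inside it, at 0.50 and 0.45, and Ern1 and Ugt1a1 outside it, at 0.50 and 0.51. In LE they were Tiparp and Ccbl1 inside, at 0.45 and 0.43, and Sdc1 and Eml4 outside, at 0.52 and 0.54.

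Between stable and 2-fold lay 14 genes in HW and 5 in LE, and 11 of the 14 were stable in LE. Ube4b, a ubiquitin chain factor, stood at -0.87, -0.38, -0.49 and -0.76 in HW in the authors' deposited table, with 0.14 and 0.02 in LE. Uvrag, an autophagy gene, stood at -0.59, -0.45, -0.39 and -0.69 in HW in the authors' deposited table, with 0.22 and -0.02 in LE. Both were thus below 0 at every HW time and near 0 or above it in LE, and relative to the HW medians their distances from 0 are smaller. Bbs2, a protein of the primary cilium, stood at -0.76, -0.31, -0.38 and -0.43 in HW in the authors' deposited table, with -0.05 and -0.08 in LE.

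The other lists are small and are read on the OpenArray. They stand beside the counts over all genes, 11 of 49 past 2-fold in at least 1 HW group and 6 of 49 in LE. Of the proteasome and endoplasmic reticulum list 3 genes were measured (Psmb4, Derl1 and Ern1) and 0 were past 2-fold, Ern1, a stress sensor, reaching -0.50 at 1.5 and 384 h in HW in the authors' deposited table. Of the 6 genes of amino acid and intermediary metabolism, Fdft1 alone was past 2-fold, and Ccbl1, a cysteine conjugate lyase now called Kyat1, ranged from -0.76 to -0.46 at the 4 HW times in the authors' deposited table. Of 4 measured cytoskeleton and matrix genes 0 were past 2-fold, and of the vesicle list's 2 (Exoc3 and Uvrag) Exoc3, which is also in the AHR battery, was, at 1.5 h. Sdc1, a cell surface proteoglycan, lay below 0 in every OpenArray group: -0.69, -0.54, -0.72 and -0.58 in HW and -0.52 and -0.33 in LE in the authors' deposited table. On the 7900HT Sdc1 stood at -1.46, 0.53, 0.09 and 0.42 in HW and 0.06 and -1.63 in LE in the authors' deposited table. Mug1, a secreted protease inhibitor of hepatocytes, lay at -0.53 to -0.32 in HW and at 0.52 and 0.65 in LE.

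A group of other animals at the reference time itself gives a measure of how far values move without a difference in time. The lowest TCDD dose, 0.001 µg/kg at 19 h, has 4 samples per strain. On the OpenArray 5 of 49 genes were past 2-fold there in HW (10.2%), 3 of them higher (6.12%) and 2 lower (4.08%), and 5 of 48 in LE (10.4%; all lower), no fewer than in most corn oil groups. The median absolute log2 value was 0.23 in HW and 0.21 in LE at this dose, against 0.36 (1.5 h), 0.27 (96 h), 0.27 (240 h) and 0.31 (384 h) in HW corn oil and 0.22 and 0.16 in LE corn oil. These groups share the corn oil controls at 19 h and also differ in TCDD, so they are given side by side only.

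**Figure D3:**
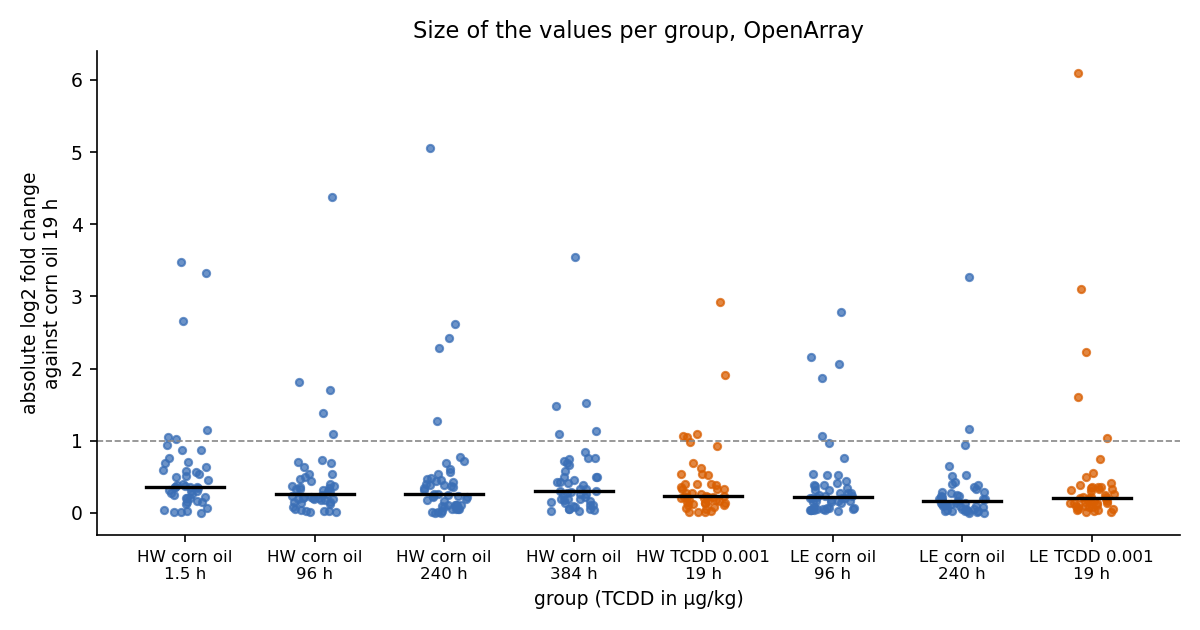
Each point is the absolute log2 fold change of 1 OpenArray gene against corn oil at 19 h (y) in a corn oil group at another time (blue) or in the 0.001 µg/kg TCDD group at 19 h (orange), with black bars at the median and a dashed line at 2-fold. The medians run from 0.16 to 0.36, and the 19 h dose groups have points as high as the corn oil groups, up to 6.10 in LE.

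On the OpenArray the genes with wide corn oil ranges were also far from 0 in those dose groups, with exceptions. In the authors' deposited table at 0.001 µg/kg, Aldh3a1 stood at 1.10 in HW and -6.10 in LE, Cyp1b1 at 2.93 and -3.11, and Scn4b at 1.91 and -1.04. Exoc3 stood at -1.06 and -2.23 and Cyp1a1 at 0.92 and -1.61 in the authors' deposited table at that dose. These 5 genes thus stood about 2-fold or more from corn oil at 19 h in animals of the same time in both strains. In LE all 5 were below their reference on the OpenArray. Inmt, in contrast, stood at -0.40 and -0.42, Nfe2l2 at -0.15 and 0.50, Fdft1 at 0.14 and 0.14, and Ahrr at -0.26 with no value in LE in the authors' deposited table. Cmkor1 stood between, at -0.98 in HW and -0.55 in LE, and Nrbp2 at -0.70 and -0.09. Mug1, past 2-fold in no corn oil group on the OpenArray, stood at -1.05 in HW and 0.21 in LE. Whether the reference group at 19 h or the other groups lie apart for the 5 genes was not tested, as it needs values per animal.

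Comparing the corn oil groups with each other leaves the 19 h group out. In HW 1 of 49 OpenArray genes was past 2-fold between 96 and 240 h (2.04%), Aldh3a1, which was 1.24 log2 units higher at 240 h. Between 240 and 384 h 4 of 48 were past 2-fold (8.33%), all lower at 384 h: Aldh3a1 by -6.17, Cyp1b1 by -6.15, Cyp1a1 by -2.75 and Ahrr by -2.55. Between 96 and 384 h the same 4 were past 2-fold, all lower. Between 1.5 and 384 h, 4 of 47 were past 2-fold (8.51%), Cyp1a1, Exoc3, Inmt and Nfe2l2. In LE 7 of 49 differed by 2-fold or more between 96 and 240 h (14.3%), with Inmt and Exoc3 higher at 240 h and Ahrr, Aldh3a1, Cyp1a1, Cyp1b1 and Scn4b lower. Without 19 h, 9 genes spanned 2-fold or more in HW and 7 in LE, where Fdft1 and Nrbp2 dropped out in HW and Exoc3 came in for LE.

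The strains have separate control animals and can be set against each other at 96 and 240 h. At 96 h on the OpenArray 5 genes were past 2-fold in each strain. Of each 5, 4 were in both, all higher: Ahrr, Aldh3a1, Cyp1b1 and Scn4b. The values correlated across the 49 genes with a Pearson r of 0.78 and a Spearman rho of 0.31. Without the 5 genes of largest value r was 0.08, so the correlation rested on Cyp1b1, Cyp1a1, Scn4b, Aldh3a1 and Ahrr. At 240 h r was -0.45 and rho -0.01, and r was 0.36 without the same 5 genes. The 1 OpenArray gene past 2-fold in both strains at 240 h was Aldh3a1, at 2.62 in HW and -3.26 in LE in the authors' deposited table. On the 7900HT at 96 h Ahrr stood at 7.02 in HW and -3.81 in LE in the authors' deposited table. Aldh3a1 stood there at -4.40 and -6.76 and Cyp1b1 at 5.41 and 0.89, and Scn4b was not measured. There 8 genes were past 2-fold in both strains at 96 h, 6 of them on the same side. The 7900HT r was 0.21 at 96 h and 0.16 at 240 h. Genes of 1 group share its animals and its reference, so these correlations describe the groups and have no p-value.

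Corn oil groups also serve as the reference of the TCDD groups, and the choice of corn oil group moved some TCDD values. For 100 µg/kg TCDD on the OpenArray, 22 of 49 genes in HW at 96 h were past 2-fold against corn oil of the same time (44.9%) and 18 against corn oil at 19 h (36.7%). At 240 h the counts were 22 (44.9%) and 23 (46.9%) of 49. At 384 h 22 of 48 genes were past 2-fold against corn oil of the same time (45.8%) and 20 of these 48 against 19 h, or 21 of 49 with Scn4b (42.9%). At 1.5 h the counts were 6 of 48 (12.5%) and 5 of 48, or 6 of 49 with Ahrr (12.2%). In LE they were 30 (61.2%) and 33 (67.3%) of 49 at 96 h, and 33 (67.3%) and 32 (65.3%) at 240 h. Over these OpenArray comparisons 0 genes past 2-fold under both references changed sign. On the 7900HT the shares past 2-fold against corn oil of the same time were 71.8%, 84.6%, 81.6% and 71.8% in HW from 1.5 to 384 h and 78.9% and 71.8% in LE. Against 19 h they were 71.8%, 74.4%, 74.4% and 79.5% in HW and 73.7% and 71.8% in LE. There 4 genes changed sign in HW at 1.5 h, 1 each in HW at 240 and 384 h, and 1 in LE at 240 h.

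Aldh3a1, Inmt and Cyp1a1 show how far the reference moved a TCDD value. Aldh3a1 under TCDD at 384 h in HW stood at 10.54 in the authors' deposited table, against corn oil at 19 h, and 14.08 above corn oil at 384 h. Inmt, low under TCDD, went from -4.99 to -6.52 at 384 h in HW and from -5.80 to -6.97 at 240 h in LE. At 1.5 h Aldh3a1 went from 2.36 to 5.68, Cyp1a1 from 5.63 to 2.16, and Exoc3 from -0.08 to 2.58, which is past 2-fold only against corn oil of the same time. Among genes near the threshold, Ahr at 96 h in HW went from 0.69 to 1.40, Uvrag from 0.68 to 1.12, and Sdc1 at 240 h from -1.13 to -0.41. Ahr and Uvrag were thus past 2-fold only against corn oil of the same time, and Sdc1 only against corn oil at 19 h.

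**Figure D4:**
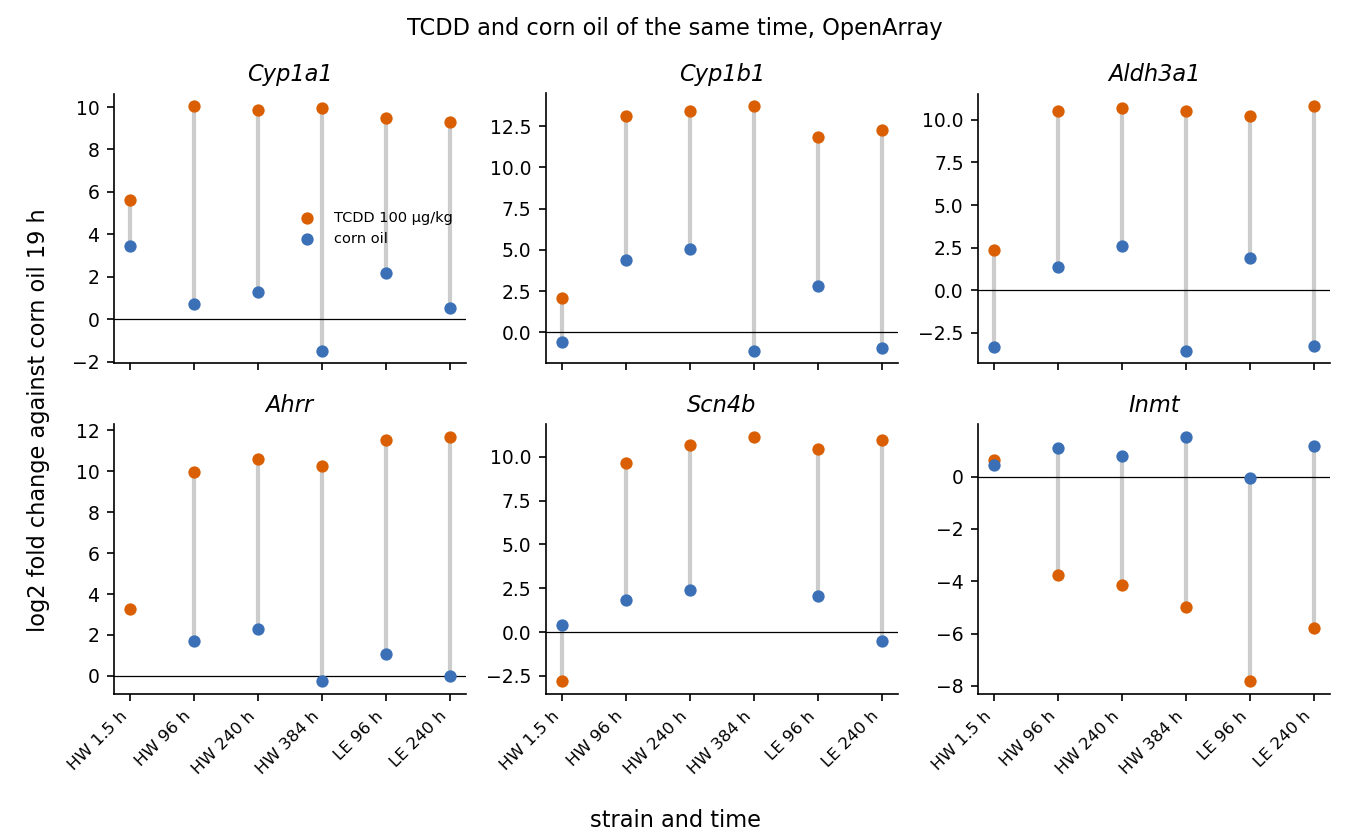
For 6 genes, the log2 fold change against corn oil at 19 h (y, a scale per gene) is shown for 100 µg/kg TCDD (orange) and corn oil of the same strain and time (blue) on the OpenArray, joined by a grey line; Ahrr has no corn oil value at 1.5 h and Scn4b none at 384 h. Corn oil points move between -3.54 and 2.62 for Aldh3a1, while TCDD points from 96 h on stay between 10.24 and 10.83.

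On the 7900HT, the check, the same groups gave other values. In HW 34 of 39 genes were past 2-fold at 1.5 h (87.2%), 13 of 39 at 96 h (33.3%), 11 of 38 at 240 h (28.9%) and 15 of 39 at 384 h (38.5%). In LE 13 of 39 were past 2-fold at 96 h (33.3%) and 19 of 39 at 240 h (48.7%). The 0.001 µg/kg group at 19 h had 25 of 38 past 2-fold in HW (65.8%) and 21 of 39 in LE (53.8%). The 7900HT medians were -1.23, 0.29, 0.10 and 0.42 in HW and 0.17 and -0.18 in LE. Centring on them changed the split from 11 higher (28.2%) and 23 lower (59%) to 13 and 1 at 1.5 h, from 9 (23.1%) and 6 (15.4%) to 5 and 9 at 384 h, and from 4 (10.3%) and 9 (23.1%) to 1 and 9 in LE at 96 h. In HW 0 genes were stable and in LE 3 (Ccbl1, Exoc3 and Psmb4). Without the 1.5 h group, 11 were stable in HW. Without 96 h, 10 were stable in LE, and without 240 h, 12. The median range was 2.44 in HW and 1.48 in LE, against 0.53 and 0.27 on the OpenArray. With each 7900HT group centred on its median, the HW range was 0.84 and 8 genes were stable in HW.

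On that instrument 14 genes have 4 rows each in the table of cycle values and 25 have 2, and the medians of these sets differed. At 1.5 h in HW the 4-row genes had a median of 2.39 and the 2-row genes of -1.46, with 25 of 25 below 0. At 96 h the medians were -1.72 and 0.37, at 240 h -1.25 and 0.12, and at 384 h -0.91 and 0.49. The same genes on the OpenArray had medians of -0.24 and -0.31 at 1.5 h, 0.20 and -0.18 at 96 h, 0.01 and -0.10 at 240 h, and -0.26 and -0.22 at 384 h. Most AHR battery genes have 4 rows, so on the 7900HT the split by rows and the split by function largely overlap. At 1.5 h in HW the 2-row battery genes Fmo1 and Exoc3 stood at -1.90 and -0.53 in the authors' deposited table. The 4-row genes outside the battery, Ahr, Arnt, Cyp2s1 and Gfer, stood at 2.47, 2.98, 2.16 and -1.28. Which split the values follow was not tested. With each set centred on its own median, 7 genes stayed past 2-fold at 1.5 h and 7 at 96 h.

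Gene by gene, some OpenArray values recurred on the 7900HT and others did not. Cyp1a1 stood at 3.16 (1.5 h), -1.86 (96 h), 0.34 (240 h) and -3.24 (384 h) in HW on the 7900HT in the authors' deposited table, high at 1.5 h and low at 384 h on both platforms. In LE it stood at -0.02 (96 h) and -1.86 (240 h) on the 7900HT in the authors' deposited table, against 2.16 and 0.51 on the OpenArray, so the LE value past 2-fold at 96 h was not seen there. Cyp1b1 stood at 1.24, 5.41, 1.27 and -3.90 in HW and 0.89 and -3.51 in LE in that authors' deposited table, high at 96 h and low at 384 h in HW on both platforms. Aldh3a1, by contrast, stood at 0.26, -4.40, 1.31 and 23.00 in HW and at -6.76 and 1.82 in LE in the authors' deposited table, against -3.54 on the OpenArray at 384 h. Read as log2, 23.00 would be a fold of 8.4e+06, so it is given as deposited and not read as a size of change. Ahrr spanned -10.89 at 1.5 h to 7.02 at 96 h in HW in the authors' deposited table. Inmt stood at 2.19, 0.34, -0.24 and 1.58 in HW and at -0.55 and 0.83 in LE in the authors' deposited table, above 0 at the latest time of both strains here too. Ghr, the gene of narrowest range in HW on the OpenArray, stood at -1.80, 0.10, 0.07 and 0.35 in HW and at 0.74 and 1.40 in LE in the authors' deposited table. Nfe2l2 at 1.5 h in the authors' deposited tables stood at 4.33 on the 7900HT and -1.16 on the OpenArray, and Exoc3 at -0.53 and -2.66. Gaps of over 2 log2 units between the platforms in at least 4 of 6 groups were found for Aldh3a1 (5 groups), Ahr (4) and Nqo1 (4).

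**Figure D5:**
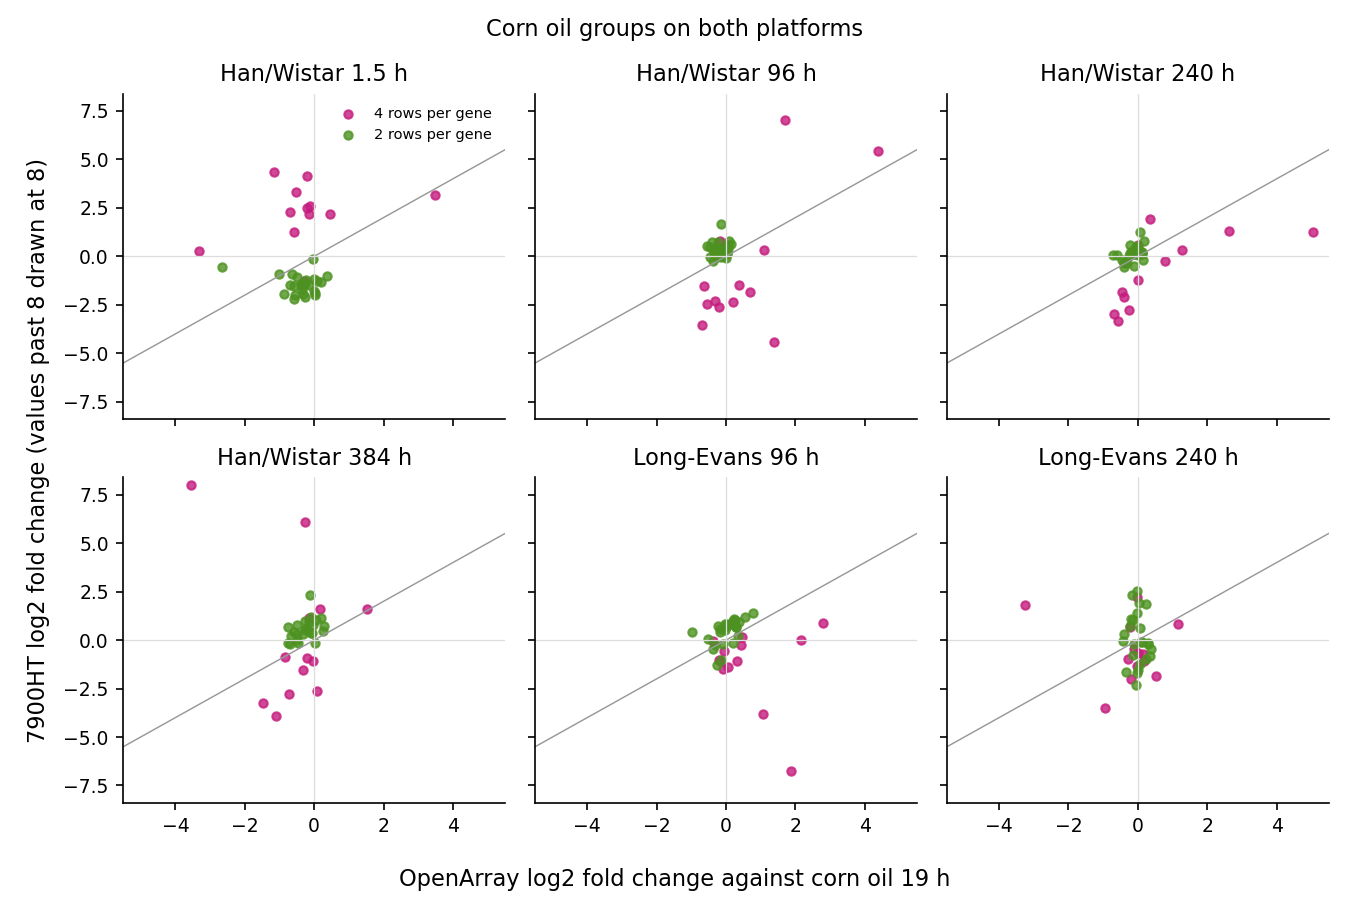
Each point is a gene measured on both platforms in 1 corn oil group, with its OpenArray log2 fold change (x) and its 7900HT log2 fold change (y, Aldh3a1 at 23.00 drawn at 8), coloured by rows per gene on the 7900HT; the grey line marks equal values. OpenArray values cluster near 0 while 7900HT values spread, and at 1.5 h in HW the 2-row genes lie below 0 and most 4-row genes above.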

How the data were processed

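Per the labels' protocols, total liver RNA was turned into cDNA and measured by quantitative PCR. Each platform's deposited table lists, per the file headers, gene, strain, time, dose and 1 value per group, read as the log2 ratio the authors computed against corn oil at 19 h of the strain. All 176 values of that group are 0, and the log base is not stated. The sources used here do not give the reference genes, how failed wells were handled or how animals were averaged. R 2.12.2 is named in the submitters' processing notes.

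The tables of raw cycle values have 304 columns of animal codes that match no sample label. None was used, and only gene names and rows per gene were read. Of the corn oil values other than 19 h, the OpenArray has 292 of 294 and the 7900HT 233 of 234. Missing are Ahrr at 1.5 h and Scn4b at 384 h in HW on the OpenArray, and Ahrr at 240 h in HW on the 7900HT. An ending on 4 gene names was removed. Of 50 names, 47 matched a current RefSeq symbol (GRCr8) and 3 an older one.

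The planned limma fit needed animal values and was not run. Genes were counted at 2-fold (1 log2 unit) and as stable within 0.5 log2 units. Named in full were genes past 2-fold on the OpenArray, the 10 with the narrowest range per strain, the listed genes, and those with platform gaps over 2 log2 units in at least 4 groups. The genes and lists were chosen with earlier results of these data known. Alternatives were folds of 1.5 and 4, stable limits of 0.3 and of 1.5-fold, centring, other references and leaving out times. The counting was tested on simulated data. Calculations used pandas 2.3.3 with numpy 2.4.6 under Python 3.11.15, correlations scipy 1.17.1, and plots matplotlib 3.10.9.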

Additional observations from a re-analysis of the deposited data

Results flagged for a closer look

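In 5 cases a gene stood past 2-fold on opposite sides in the strains at the same corn oil time. None of these differences was tested, because each strain has 1 value. On the OpenArray Aldh3a1 at 240 h stood at 2.62 in HW and -3.26 in LE in the authors' deposited table. On the 7900HT, in the authors' deposited table, Ahrr at 96 h stood at 7.02 in HW and -3.81 in LE. Pomp, a proteasome assembly factor, stood at 1.66 and -1.03 at 96 h. At 240 h Cyp1b1 stood at 1.27 and -3.51, and Tiparp at 1.91 and -1.33. On the OpenArray the Pomp values at 96 h were -0.15 and -0.16 and those of Tiparp at 240 h 0.34 and -0.01, in the authors' deposited table.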

How the results depend on the processing

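Of the summary values, 125 alternatives left the value near that reported and 59 moved it. Of the single OpenArray values past 2-fold, 49 alternatives kept them there, 25 brought them under 2-fold and 0 reversed them. Where a fold or limit was changed, the count moved by construction; elsewhere the cause was not tested. On the OpenArray at 1.5-fold the counts were 15, 9, 9 and 12 in HW at 1.5, 96, 240 and 384 h and 4 in LE at 240 h. At 4-fold they were 3, 1 and 1 in HW at 1.5, 96 and 384 h, and 3 and 1 in LE at 96 and 240 h. Centring left 3 in HW at 1.5 h and 3 at 384 h. Against the mean of the corn oil groups HW at 96 h had 2, and against corn oil at 96 h HW at 240 h had 1 and LE 7. At a limit of 0.3, 13 genes were stable in HW. As a mean over genes the shift was 0.028 at 96 h and 0.11 at 240 h in HW and 0.22 at 96 h in LE, and without the AHR battery the HW median at 240 h was -0.21.

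On the 7900HT at 1.5-fold the counts were 24 in HW at 384 h and 23 and 29 in LE. At 4-fold they were 15, 8, 4 and 7 in HW and 2 and 6 in LE. Centring left 14 at 1.5 h, and centring the 4-row and 2-row genes apart left 7 and 7 in HW at 1.5 and 96 h and 6 in LE at 96 h. Against corn oil at 96 h HW had 4 at 240 h and 8 at 384 h, and against the mean of the corn oil groups 9 at 384 h. In HW 8 genes were stable after centring, 11 without 1.5 h and 18 with 96 and 240 h alone. In LE 1 was stable at a limit of 0.3, 5 at a limit of 1.5-fold, 10 without 96 h and 12 without 240 h. As a mean the shift was -0.43, -0.026, -0.19 and 0.76 in HW and -0.16 in LE at 96 h. The HW mean at 384 h includes the Aldh3a1 value of 23.00. Without the AHR battery the median was -1.40 in HW at 1.5 h and 0.50 in LE at 96 h.

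Chosen after seeing the data were the alternatives to the lowest dose group, the median range, the correlation between strains and the single values. At 0.001 µg/kg the OpenArray count in HW was 9 at 1.5-fold and 1 at 4-fold, and in LE 3 at 4-fold. On the 7900HT it was 10 and 12 at 4-fold. The median 7900HT range in HW was 0.84 after centring. Without the 5 genes of largest value r between strains was 0.080 at 96 h and 0.36 at 240 h on the OpenArray. On the 7900HT it was 0.46 at 96 h, against 0.21 with all genes, and 0.11 at 240 h, against 0.16. The 7900HT rho at 96 h was 0.18 without those 5 genes, against 0.26 with all.

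No paired analysis was possible because the authors' deposited tables hold 1 value per gene and group and no replicate numbers. Leaving out each animal was not run for the same reason. Group sizes of 3 to 7 animals limit every value to an unknown degree.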
